A study of Sus scrofa with 599 samples.

Results

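The genes described here are 8 genes for adipokines, the signalling proteins that adipose tissue releases: LEP, ADIPOQ, RBP4, RARRES2, CFD, NAMPT, APLN and RETN. They were taken by name, from the list of classical adipokines, out of the 21280 protein-coding genes (PCGs) in the expression table, and each symbol was matched to its Ensembl identifier through the pig annotation. All 8 were found, and 7 passed the filter on low values in the groups compared. RETN did not.

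The study followed female Bama pigs, 2 years old by its methods, through weight gain and weight loss and profiled 4 adipose tissues (ATs) by RNA-seq, Hi-C and H3K27ac ChIP-seq. The normal diet group (NC) ate a normal diet. The weight gain group (WG) ate a high-fat diet for 22 weeks. The weight loss group (WL) ate the high-fat diet for 22 weeks and was then restricted for 12 weeks to 10% of the normal caloric intake, so WL carries the high-fat period as well as the restriction, and no group was restricted without it. The visceral ATs (VATs) were the greater omentum (GOM), the mesenteric adipose (MAD) and the retroperitoneal adipose (RAD), and the subcutaneous AT was the upper layer of backfat (ULB). By the study's methods all 4 ATs were taken from each carcass, so libraries of different ATs share pigs. For NC, WG and WL, GOM gave 9, 45 and 10 RNA-seq libraries, MAD gave 12, 36 and 10, RAD gave 12, 39 and 10, and ULB gave 5, 38 and 10. The NC group of ULB is thus the smallest. The tables name 2 more NC columns of GOM and 7 more of ULB that matched no sample and were not used here. The tissue was not sorted, so in these bulk samples fewer cells of a type and less RNA per cell cannot be told apart. By the study's methods Hi-C used the adipocyte-holding upper layer of the centrifuged tissue.

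Adipokines act as hormones, enzymes and immune signals. Leptin reports the size of the fat store to the brain, adiponectin raises insulin sensitivity, and retinol-binding protein 4 carries vitamin A in blood. Chemerin (from RARRES2) attracts immune cells, complement factor D (from CFD, also called adipsin) starts the alternative complement pathway, NAMPT makes the precursor of NAD, apelin (from APLN) acts on heart and vessels, and resistin (from RETN) is made by adipocytes in mice and mainly by immune cells in humans.

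In the pig genome build Sscrofa11.1, with positions from RefSeq, LEP lies at chr18:20106867-20124071 and RARRES2 at chr18:55903693-55906976. ADIPOQ lies at chr13:124633906-124646237, RBP4 at chr14:105037360-105044552, NAMPT at chr9:106119896-106162126 and APLN at chrX:106236746-106246563. RETN, at chr2:71484164-71485577, and CFD, at chr2:77509792-77511988, share a chromosome. ADIPOQ is on the plus strand and the other 7 are on the minus strand.

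The 250 bases before the transcription start, from RefSeq, are shown for the 4 genes that stand for the range of these windows, 5′ to 3′ on the strand of the gene. Capitals mark the matches to 4 motifs searched on both strands. TATAAA is the core of the TATA box. The CCAAT box is spelled by its name. The GC box is searched as GGGCGG. A short form of the C/EBP motif is TTGCNNAA. No 2 of these matches overlap. The LEP start is that of the curated transcript, which lies inside the gene model. Its window may therefore not be the promoter at the 5′ end of that model. LEP is from chr18:20113090-20113339 (minus strand), ADIPOQ from chr13:124633656-124633905 (plus strand), RBP4 from chr14:105044192-105044441 (minus strand) and NAMPT from chr9:106161842-106162091 (minus strand).
LEP: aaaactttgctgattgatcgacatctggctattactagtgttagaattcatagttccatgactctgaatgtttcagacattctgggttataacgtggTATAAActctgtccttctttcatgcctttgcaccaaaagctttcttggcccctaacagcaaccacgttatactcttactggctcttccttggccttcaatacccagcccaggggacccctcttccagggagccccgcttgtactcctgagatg
ADIPOQ: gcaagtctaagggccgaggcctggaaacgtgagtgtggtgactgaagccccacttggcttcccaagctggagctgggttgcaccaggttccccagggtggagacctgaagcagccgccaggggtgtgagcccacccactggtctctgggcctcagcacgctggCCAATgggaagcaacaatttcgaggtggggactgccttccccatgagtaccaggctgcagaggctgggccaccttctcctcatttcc
RBP4: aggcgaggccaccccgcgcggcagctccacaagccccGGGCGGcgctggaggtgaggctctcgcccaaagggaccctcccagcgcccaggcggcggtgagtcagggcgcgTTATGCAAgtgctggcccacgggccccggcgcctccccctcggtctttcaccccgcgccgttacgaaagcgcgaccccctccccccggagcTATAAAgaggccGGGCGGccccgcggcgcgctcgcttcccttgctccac
NAMPT: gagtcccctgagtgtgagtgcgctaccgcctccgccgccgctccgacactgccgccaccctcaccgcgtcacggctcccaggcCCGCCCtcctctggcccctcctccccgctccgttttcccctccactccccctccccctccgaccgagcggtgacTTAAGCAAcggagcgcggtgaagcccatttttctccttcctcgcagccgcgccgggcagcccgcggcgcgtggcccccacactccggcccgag

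The LEP window was the poorest in G and C of the 8, at 46% with 4 CG pairs, and held TATAAA at 153 to 148 bases before the start. RBP4 and NAMPT stood at the other end, with 74.4% and 72.8% G and C and 31 and 29 CG pairs. RBP4 held TATAAA, 2 GC boxes and a match to TTGCNNAA, and NAMPT held a GC box and a match to TTGCNNAA. ADIPOQ, at 62.0% and 5 CG pairs, held only CCAAT among these motifs. Over the 13521 windows of the same length in the annotation, the median was 60.4%, 8.10% held TATAAA, 31.4% CCAAT, 53.5% GGGCGG and 7.69% TTGCNNAA. CACGTG (the E-box), in 6.94% of windows, and TTGCGCAA (the full C/EBP motif), in 0.170%, were searched as well and matched none of the 8. These are matches of letters and not sites.

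By correlation with its own group, 1 library stood apart. WG replicate 35 in GOM had a median correlation of 0.658 with its own group, where the next lowest of all libraries had 0.901, and it held the highest TPM (a length-scaled share of the library's transcripts) of its group for CFD, RARRES2, RBP4 and APLN and the lowest for NAMPT. Others differed in markers or closest match. NC replicate 1 in MAD had a summed TPM of 8410 for 3 smooth muscle markers (group median 791.9). It also held its group's lowest LEP, ADIPOQ and RBP4. WL replicate 6 in MAD had a summed TPM of 1003 for 6 lymphocyte markers (median 58.4). NC replicate 10 in GOM was closest to WG replicate 7 of GOM (r = 0.991, own group at most 0.977). NC replicate 12 in MAD was closest to WG replicate 9 of MAD (r = 0.988, at most 0.978). Estimated counts per library ran from 3337098 to 22939420, with a median of 16791659. The share of TPM on PCGs had NC medians of 79.0% (GOM), 95.7% (MAD), 88.7% (RAD) and 92.4% (ULB), and medians of 93.1% to 95.1% in WG and of 85.4% to 92.3% in WL. It was lowest in NC GOM, so each result was refitted with it as a covariate. The 8 adipocyte markers (such as PLIN1 and FABP4) were above 0 in all 236 libraries. Their summed TPM had medians of 5407 in NC GOM and 11980 in WG GOM, against 10790 and 13980 in MAD, 13800 and 17530 in RAD and 10680 and 12050 in ULB. This sum rests mainly on FABP4, with a median of 10240 TPM over all libraries, against at most 815.4 (CIDEC) for any other marker.

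On the TPM scale, which is per length, the 8 genes spanned the whole range of expression. ADIPOQ was among the most abundant transcripts of adipose tissue, at rank 13 to 45 of 15068 PCGs over the 12 groups. CFD ranked 158 to 417, RARRES2 135 to 777, LEP 158 to 1652, NAMPT 584 to 1690 and RBP4 836 to 5871. APLN ranked 10346 or lower, and RETN 11781 or lower. A difference is called below when its adjusted p was under 0.05 in edgeR's quasi-likelihood test over all PCGs and its fold change was above 1.5.

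**Figure D1:**
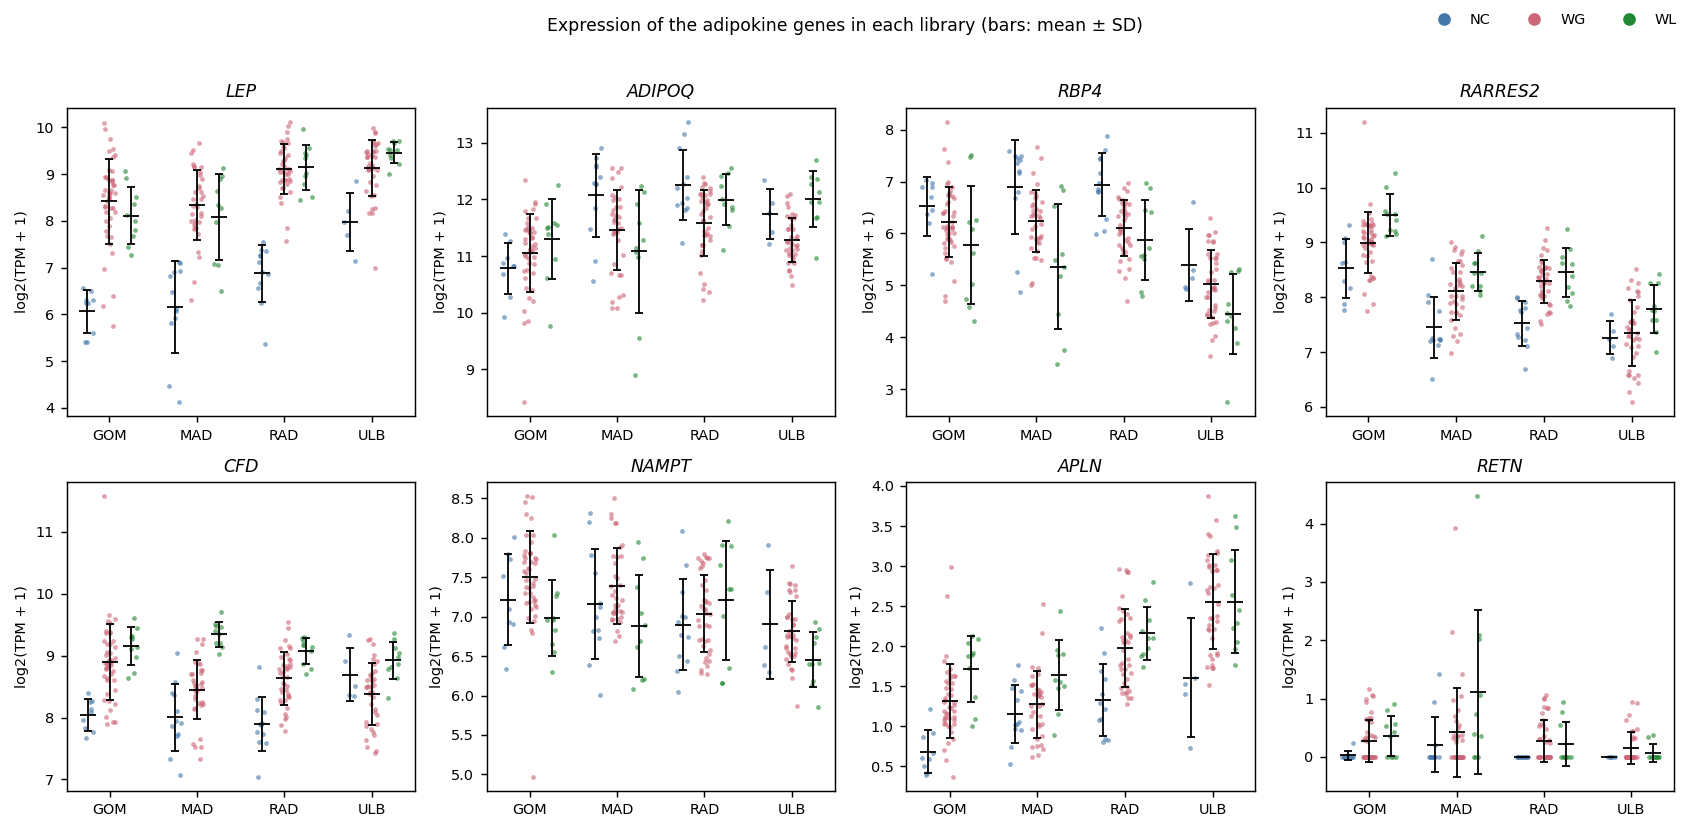
Expression of each adipokine gene as log2(TPM + 1), 1 point per library, by adipose tissue and diet, with black bars for the mean ± SD. LEP is higher in WG and WL than in NC in each tissue, RARRES2 is highest in GOM, RBP4 is lowest in ULB and RETN is near 0 in most libraries.

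Weight gain was first compared with the normal diet. Of the 28 tests of the 7 genes in 4 ATs, 10 were called, 6 higher and 4 lower in WG. Over all PCGs 26.7% were called in GOM (12.2% higher, 14.5% lower), 10.7% in MAD (5.38% higher, 5.29% lower), 16.7% in RAD (7.1% higher, 9.6% lower) and 2.38% in ULB (0.507% higher, 1.87% lower). The calls fell on LEP (3 higher), APLN (2 higher), CFD (1 higher), ADIPOQ (2 lower) and RBP4 (2 lower), and NAMPT and RARRES2 had none.

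LEP, the gene for leptin, showed the largest change. In GOM its TPM ran from 41.8 to 93.1 with a median of 75.1 in NC, and from 53.1 to 1098 with a median of 374.9 in WG. In MAD the range was 16.5 to 138.4 with a median of 78.3 in NC, and 77.9 to 805.2 with a median of 322.0 in WG. In RAD it was 40.2 to 186.9 with a median of 128.9 in NC, and 189.5 to 1110 with a median of 547.2 in WG. In RAD every WG library was therefore above every NC library, while in GOM 42 of 45 and in MAD 34 of 36 WG libraries were above the highest NC library. On the log2 scale LEP rose by 2.26 ± 0.34 (SE) in GOM (adjusted p = 6.2e-07), by 1.93 ± 0.27 in MAD (adjusted p = 1.9e-06) and by 2.01 ± 0.19 in RAD (adjusted p = 3.1e-11). These 3 calls held under every alternative that was refitted. In ULB the 5 NC libraries had TPM of 141.2, 207.4, 249.1, 293.4 and 457.9, and the 38 WG libraries ran from 125.9 to 1016 with a median of 594.9. The ranges overlapped, with 28 of 38 WG libraries above the highest NC library, and the log2 difference of 1.04 ± 0.32 was not called (adjusted p = 0.063). It was called by DESeq2 (adjusted p = 0.018).

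ADIPOQ, the gene for adiponectin, fell with weight gain in MAD and RAD. Its TPM in MAD ran from 1510 to 7691 with a median of 4983 in NC and from 1091 to 6041 with a median of 3079 in WG. In RAD it ran from 2393 to 10580 with a median of 4454 in NC and from 1199 to 5387 with a median of 3289 in WG. The ranges overlapped in both, but 11 of 12 NC libraries of RAD were above the WG median. The log2 difference was -0.76 ± 0.22 in MAD (adjusted p = 0.011) and -0.92 ± 0.18 in RAD (adjusted p = 7.7e-05). It was 0.09 ± 0.24 in GOM (adjusted p = 0.79), where NC started at a median of 1810, and -0.58 ± 0.19 in ULB (adjusted p = 0.090).

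RBP4 moved down beside it. The MAD range was 28.4 to 190.1 TPM with a median of 154.4 in NC and 31.3 to 202.3 with a median of 78.8 in WG. The RAD range was 62.9 to 233.1 with a median of 120.0 in NC and 24.9 to 124.1 with a median of 70.4 in WG. In RAD 16 of 39 WG libraries were below the lowest NC library. The log2 difference was -0.90 ± 0.20 in MAD (adjusted p = 0.0017) and -1.12 ± 0.16 in RAD (adjusted p = 7.9e-07), against -0.48 ± 0.25 in GOM (adjusted p = 0.12) and -0.50 ± 0.27 in ULB (adjusted p = 0.40). Across all 236 libraries ADIPOQ and RBP4 had r = 0.352 (rho = 0.348), and r = 0.48 on deviations from the group means. This is a description across libraries that share depth and tissue makeup.

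CFD and APLN rose in some ATs. CFD, a serine protease of complement that adipocytes secrete, ran from 201.7 to 336.1 TPM with a median of 272.7 in NC GOM and from 236.7 to 3039 with a median of 470.1 in WG GOM. The top value of 3039 belongs to WG replicate 35. Its log2 difference of 0.78 ± 0.29 (adjusted p = 0.027) became 0.58 without that library, with an adjusted p of 0.0059, which is under the fold change limit. APLN, the gene for apelin, was scarce, with medians of 0.519 TPM in NC GOM and 1.36 in WG GOM and of 1.38 and 2.86 in NC and WG RAD. It rose by 1.07 ± 0.33 in GOM (adjusted p = 0.0084) and by 0.71 ± 0.24 in RAD (adjusted p = 0.016). In NC GOM 5 of 9 libraries were above 0.5 TPM for APLN, against 43 of 45 in WG GOM. In every comparison with NC GOM it thus passed the filter only through the other group, so the filter favoured calls above NC GOM. In MAD the APLN difference was 0.04 ± 0.22 (adjusted p = 0.92).

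RARRES2 and NAMPT were not called in any AT. RARRES2 had log2 differences of 0.06 to 0.53, with an adjusted p of 0.0041 in RAD and 0.043 in MAD but fold changes below 1.5. In RAD 31 of 39 WG libraries were nonetheless above the highest NC library, at medians of 191.9 and 315.3 TPM. NAMPT, the rate-limiting enzyme of the NAD salvage pathway, had log2 differences of -0.31 to 0.04.

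**Figure D2:**
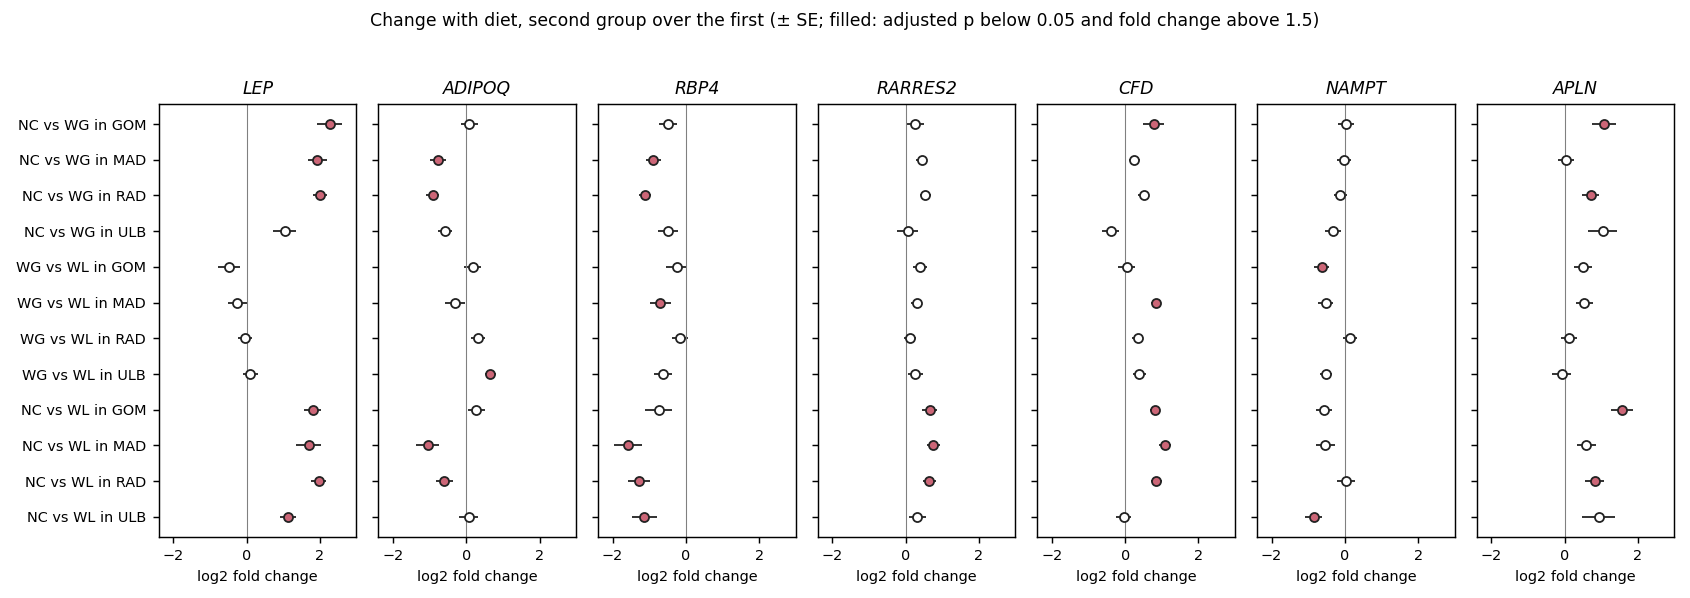
Log2 fold change (second group over the first, ± SE) of 7 adipokine genes in the 12 diet comparisons, with called differences filled. LEP is filled in GOM, MAD and RAD for NC vs WG and in all 4 tissues for NC vs WL, and few points are filled for WG vs WL.

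Weight loss was then compared with weight gain, with the same WG libraries as before. Of 28 tests 4 were called, 2 higher and 2 lower in WL, where 5.26% of PCGs were called in GOM (2.55% higher, 2.71% lower), 17.4% in MAD (8.26% higher, 9.17% lower), 6.37% in RAD (2.24% higher, 4.13% lower) and 8.12% in ULB (3.22% higher, 4.9% lower). LEP was not called in any AT, with log2 differences of -0.48 ± 0.29 in GOM (adjusted p = 0.33), -0.25 ± 0.25 in MAD (adjusted p = 0.46), -0.05 ± 0.18 in RAD (adjusted p = 0.89) and 0.10 ± 0.20 in ULB (adjusted p = 0.76). Its WL medians were 265.0, 316.3, 584.7 and 726.8 TPM in GOM, MAD, RAD and ULB.

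ADIPOQ rose in ULB, from 1431 to 4361 TPM with a median of 2404 in WG to 1992 to 6627 with a median of 4218 in WL. Of the 10 WL libraries, 5 were above the highest WG library. The log2 difference was 0.66 ± 0.16 (adjusted p = 0.0021), and 0.44 with the share of TPM on PCGs as a covariate (adjusted p = 0.12). In the same libraries the median adipocyte marker sum went from 12050 to 17550 TPM, and that of 4 fibroblast and progenitor markers from 9079 to 4498. The first sum rests mainly on FABP4. In the second, COL3A1 and DCN had the highest medians over all libraries (2023 and 1483 TPM). The sums can thus move with single genes. The part of these marker sums in the ADIPOQ difference was not tested. CFD rose in MAD, from 160.4 to 616.8 TPM with a median of 361.1 in WG to 519.3 to 830.4 with a median of 660.9 in WL. The difference was 0.83 ± 0.14 (adjusted p = 1.9e-05), with 6 of 10 WL libraries above the highest WG library.

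The 2 lower calls were close to the limit. RBP4 in MAD differed by -0.70 ± 0.28 (adjusted p = 0.049), by -0.58 without WL replicate 7 (adjusted p = 0.11) and by -0.65 with the covariate (adjusted p = 0.14). NAMPT in GOM differed by -0.63 ± 0.21 (adjusted p = 0.045), at medians of 186.5 TPM in WG and 123.3 in WL, and was called neither with no filter on low genes (adjusted p = 0.073) nor with the covariate (-0.63, adjusted p = 0.14). With libraries of at least 88% of TPM on PCGs its difference was -0.31 (adjusted p = 0.56).

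Weight loss was also set against the normal diet, with the NC and WL libraries used above. Of 28 tests 18 were called, 12 higher and 6 lower in WL. Over all PCGs 36.1% were called in GOM (15.4% higher, 20.7% lower), 33.1% in MAD (15.2% higher, 17.8% lower), 26.7% in RAD (10.2% higher, 16.6% lower) and 14.8% in ULB (5.39% higher, 9.37% lower). LEP was higher in WL in all 4 ATs, by 1.80 ± 0.25 in GOM (adjusted p = 3.5e-06), 1.69 ± 0.33 in MAD (adjusted p = 0.00043), 1.97 ± 0.21 in RAD (adjusted p = 6.9e-07) and 1.13 ± 0.22 in ULB (adjusted p = 0.0030). The WL range was 154.4 to 538.3 TPM in GOM, 347.7 to 1004 in RAD and 509.2 to 837.9 in ULB. In these 3 ATs every WL library was above every NC library, and in MAD 7 of 10 were.

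CFD and RARRES2 rose in the 3 VATs. CFD was higher by 0.80 ± 0.12 in GOM (adjusted p = 1.4e-05), 1.10 ± 0.16 in MAD (adjusted p = 3.2e-05) and 0.85 ± 0.15 in RAD (adjusted p = 0.00018), and all 10 WL libraries of GOM, between 396.2 and 776.1 TPM, were above all NC libraries. RARRES2, whose product chemerin is activated by proteases, was higher by 0.65 ± 0.21 in GOM (adjusted p = 0.011), 0.76 ± 0.18 in MAD (adjusted p = 0.0020) and 0.65 ± 0.18 in RAD (adjusted p = 0.0062). Without NC replicate 10 the GOM difference of RARRES2 was 0.57 (adjusted p = 0.024), below the fold limit. In ULB the difference of CFD was -0.04 ± 0.20 and that of RARRES2 0.31 ± 0.23.

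These 2 genes moved together over libraries, with r = 0.664 (rho = 0.623) over the 236 libraries and 0.701 on deviations from the group means. Macrophage marker sums differ between the diets as well, with medians of 429.9 in NC MAD, 1015 in WG MAD and 1245 in WL MAD over 7 of 7 markers, of 565.1, 926.6 and 1002 in RAD, and of 1094, 1433 and 1510 in GOM. In ULB, where neither gene was called between the diets, the medians were 679, 900.7 and 1187. Their part in the differences of CFD and RARRES2 was not tested.

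RBP4 was lower in WL than in NC in MAD by -1.59 ± 0.37 on the log2 scale (adjusted p = 0.0018), in RAD by -1.29 ± 0.29 (adjusted p = 0.0014) and in ULB by -1.14 ± 0.35 (adjusted p = 0.030). In ULB the 5 NC libraries had 29.7, 30.3, 34.4, 38.6 and 95.8 TPM, and the WL libraries ran from 5.76 to 39.1 with a median of 20.8. The highest NC value is replicate 12, and without it the difference was -0.79 (adjusted p = 0.14). ADIPOQ was lower in MAD by -1.06 ± 0.32 (adjusted p = 0.010, and 0.062 with the covariate) and in RAD by -0.60 ± 0.23 (adjusted p = 0.039, and 0.082 with no filter on low genes), and in ULB the difference was 0.07 ± 0.27 (adjusted p = 0.89). APLN was higher in GOM by 1.57 ± 0.29 (adjusted p = 0.00013) and in RAD by 0.82 ± 0.26 (adjusted p = 0.015). In GOM it passed the filter only through WL. In WL MAD, replicate 7 had the lowest RBP4 (10.2 TPM) and replicate 6 the lowest ADIPOQ (478.3 TPM). Replicate 6 also had the summed TPM of 1003 for lymphocyte markers, and no refit left it out. The part of lymphocyte RNA in the RBP4 and ADIPOQ differences in MAD was not tested.

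NAMPT was lower in WL ULB by -0.85 ± 0.23 (adjusted p = 0.017). The NC values were 77.5, 82.9, 97.0, 158.5 and 240.2 TPM, against 56.6 to 120.7 with a median of 84.0 in WL. Without NC replicate 2, the highest, the difference was -0.48 (adjusted p = 0.074).

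The ATs were compared with each other within each diet, with libraries of different ATs taken as independent. Of 126 tests of the 7 genes 50 were called, 27 higher and 23 lower in the second AT of a pair, where 4.91% of all PCG tests were called higher and 6.36% lower. In NC the share of PCGs called was 17.7% for GOM vs MAD, 19.5% for GOM vs RAD, 25.4% for GOM vs ULB, 2.41% for MAD vs RAD, 7.73% for MAD vs ULB and 4.32% for RAD vs ULB. In the same order the WG shares were 6.27%, 11.2%, 17.9%, 5.4%, 14.4% and 9.27%, and the WL shares 5.97%, 12.2%, 16%, 7.31%, 14.4% and 4.34%. LEP, APLN, RARRES2 and RBP4 gave 44 of the 50 calls, and each of them had its calls in 1 direction.

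**Figure D3:**
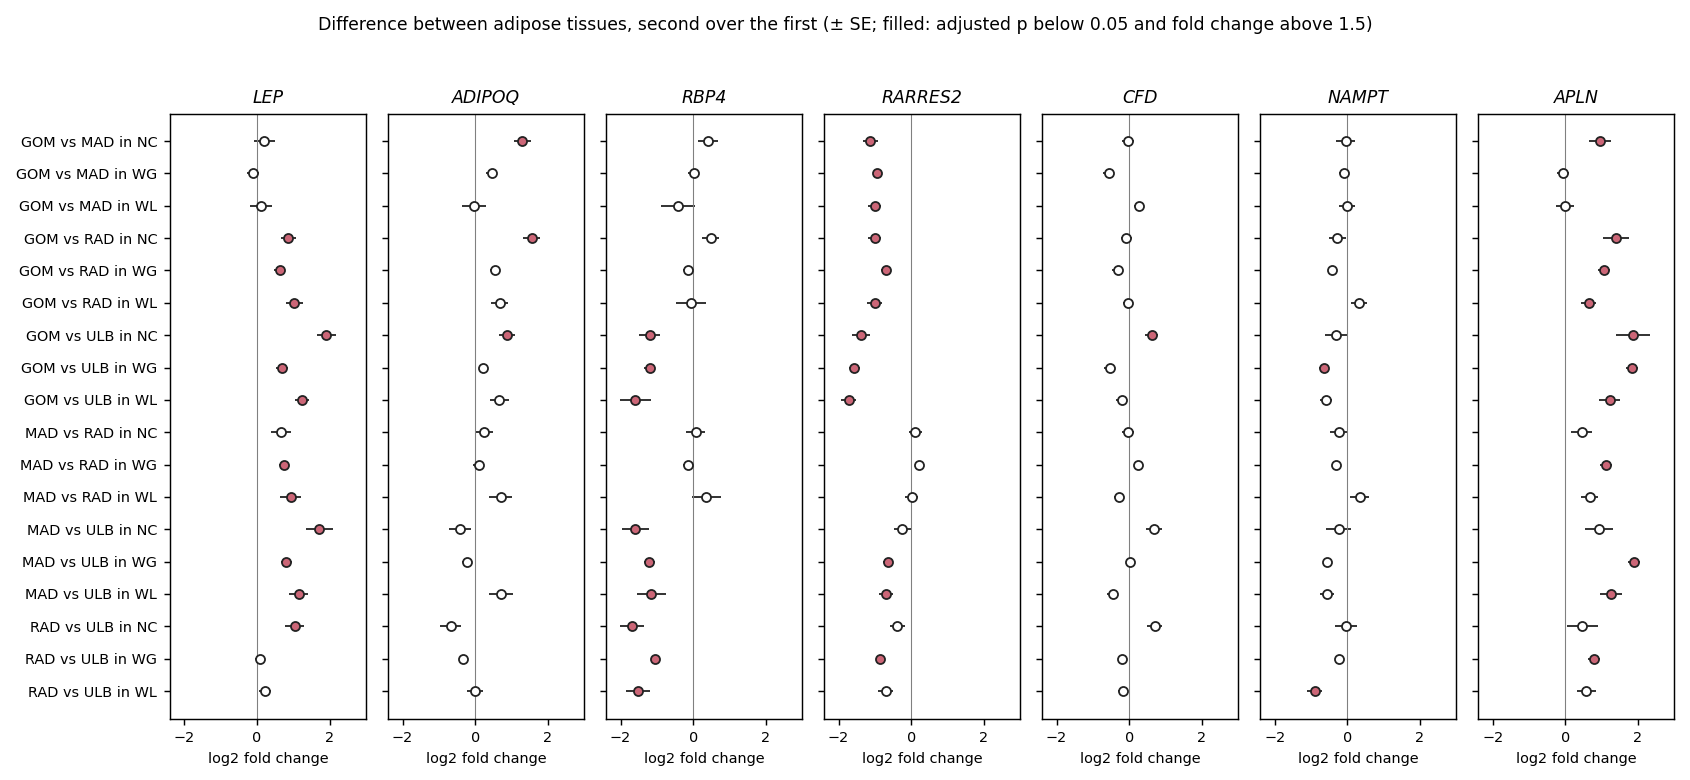
Log2 fold change (second tissue over the first, ± SE) of 7 adipokine genes in the 18 comparisons of adipose tissues within a diet, with called differences filled. RARRES2 is lower outside GOM, RBP4 is lower in ULB, and LEP and APLN are higher in ULB than in GOM in all 3 diets.

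RARRES2 was highest in GOM in every diet. Its TPM in NC GOM ran from 217.3 to 637.3 with a median of 393.1, while the MAD, RAD and ULB medians were 150.2, 191.9 and 149.7. In WL the GOM range was 558.0 to 1228 with a median of 709.6, while the MAD, RAD and ULB medians were 346.1, 361.8 and 215.8. Every WL GOM library was above every WL ULB library, which reached 340.7. The difference from GOM was called in all 9 comparisons, by -0.94 to -1.13 in MAD, -0.70 to -1.01 in RAD and -1.39 to -1.72 in ULB. RARRES2 had 12 calls between ATs and 3 between NC and WL. With only libraries of at least 88% of TPM on PCGs, 9 of these were lost. In WG the GOM and RAD difference of -0.70 ± 0.12 became -0.57 without WG replicate 35, which is below the fold limit. The mesothelial marker sum (KRT18 and WT1, the 2 of 6 markers in the table) was also highest in GOM, with NC, WG and WL medians of 71.99, 45.25 and 68.15 against 3.325 to 12.85 in the other ATs. The macrophage sum had its highest medians in GOM as well, at 1094, 1433 and 1510, while in the other ATs they ran from 429.9 to 1245. Their part in the RARRES2 differences was not tested.

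RBP4 was lowest in ULB in every diet. In WG its ULB range was 11.5 to 77.6 TPM with a median of 30.3, against medians of 69.2 in GOM, 78.8 in MAD and 70.4 in RAD. All 9 differences between ULB and a VAT were called, at -1.20 to -1.59 from GOM, -1.15 to -1.59 from MAD and -1.04 to -1.68 from RAD. Within the VATs the 9 RBP4 differences were between -0.42 and 0.48 and none was called.

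LEP was higher in ULB than in GOM and MAD in each diet. The difference from GOM was 1.90 ± 0.26 in NC (adjusted p = 5.9e-05), 0.69 ± 0.16 in WG (adjusted p = 0.00027) and 1.23 ± 0.20 in WL (adjusted p = 5.5e-05). RAD was above GOM by 0.86 ± 0.21 in NC, 0.62 ± 0.16 in WG and 1.02 ± 0.24 in WL, all called. RAD and ULB differed in NC by 1.04 ± 0.26 (adjusted p = 0.025), which was lost without NC replicate 7 of ULB (0.81, adjusted p = 0.14) or 5 (1.02, adjusted p = 0.055), and by 0.07 ± 0.13 in WG and 0.22 ± 0.17 in WL.

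APLN rose from GOM and MAD to RAD and ULB. Its WG medians were 1.36 and 1.5 TPM in GOM and MAD, and 2.86 and 5.04 in RAD and ULB. The ULB level exceeded the GOM level by 1.85 ± 0.46 in NC (adjusted p = 0.0068), 1.83 ± 0.17 in WG (adjusted p = 4.1e-16) and 1.21 ± 0.29 in WL (adjusted p = 0.0030) on the log2 scale. In NC 1 of the 5 ULB libraries, replicate 7 with 5.90 TPM, stood above the other 4, at 0.647, 1.64, 1.87 and 2.03, and the NC call was lost without it (1.28, adjusted p = 0.056). In that comparison APLN passed the filter only through ULB. With only libraries of at least 88% of TPM on PCGs, 8 of the APLN calls over all comparisons were lost.

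ADIPOQ differed between ATs in NC alone among the calls, being lower in GOM than in MAD by 1.3 ± 0.24 (adjusted p = 0.00066), in RAD by 1.55 ± 0.24 (adjusted p = 3.8e-05) and in ULB by 0.88 ± 0.23 (adjusted p = 0.0086). In WG and WL the largest of its differences from GOM was 0.67. The adipocyte marker sum is also lowest in NC GOM, as given above, and its part was not tested. With only the 2 NC GOM libraries that had at least 88% of TPM on PCGs, none of these 3 calls remained (adjusted p = 0.16, 0.099 and 0.11). NAMPT was lower in ULB than in GOM in WG by -0.65 ± 0.12 (adjusted p = 2.5e-06) and lower in ULB than in RAD in WL by -0.90 ± 0.21 (adjusted p = 0.0095). CFD was called once, higher in ULB than in GOM in NC (0.62 ± 0.18, adjusted p = 0.015), and this was lost without NC replicate 7 of ULB (0.47, adjusted p = 0.064) and fell below the fold limit without NC replicate 2 (0.57).

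The replicate numbers were also used as a block. In the comparison of GOM and ULB in NC, where the numbers paired the samples by correlation over 4 pairs, the block ended the calls of ADIPOQ (adjusted p = 0.0598), RBP4 (adjusted p = 0.0592), RARRES2 (adjusted p = 0.0509), APLN (adjusted p = 0.144) and CFD (adjusted p = 0.0593). In MAD and RAD of WL, paired over 10 numbers, it added calls of ADIPOQ (0.88, adjusted p = 0.015) and APLN (0.73, adjusted p = 0.031).

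RETN, the gene for resistin, was near 0. Its median was 0 TPM in 9 of the 12 groups, it was 0 in all 12 NC libraries of RAD and all 5 of ULB, and it is listed at 0 there rather than shown to be absent. The 5 highest values were in MAD, at 21.1, 3.26 and 3.06 TPM in WL replicates 7, 1 and 6 and at 14.2 and 3.39 in WG replicates 31 and 6, against group medians of 0.493 in WL and 0.0992 in WG. The summed TPM of 6 lymphocyte markers had medians of 40.4 in WG MAD and 58.4 in WL MAD, while WG replicate 31 held the highest of WG MAD (475.7) and WL replicate 6 the highest of WL MAD (1003). The part of lymphocyte RNA in the RETN values was not tested. With no filter on low genes, RETN differed between NC and WL in MAD by 3.63 ± 1.05 (log2, adjusted p = 0.010). The WL mean there was 2.98 TPM against the median of 0.493, with replicate 7 at 21.1 TPM. No refit without the filter left that replicate out.

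The receptors and partners of the adipokines were then examined. LEPR, the leptin receptor, was lower in RAD than in GOM by -3.46 ± 0.40 in NC (adjusted p = 8.4e-07), -3.21 ± 0.24 in WG (adjusted p = 2.5e-21) and -3.07 ± 0.30 in WL (adjusted p = 9.6e-08), while LEP was higher in RAD in the same comparisons. LEPR was not among the called receptors with weight gain in any AT. Of 10 receptors and binding partners tested between NC and WG, 3 rose in MAD and 2 in RAD, against 5.38% and 7.1% of all PCGs, and GOM and ULB had 0 calls. Their median log2 differences were 0.23 (GOM), 0.40 (MAD), 0.23 (RAD) and 0.04 (ULB). Over all PCGs tested the median log2 difference of the 12 diet comparisons was between -0.041 and 0.012. The chemerin receptor CMKLR1, which macrophages carry, rose by 1.19 ± 0.16 in MAD (adjusted p = 7.6e-07) and by 0.98 ± 0.18 in RAD (adjusted p = 4.8e-05). CCRL2, which binds chemerin without signalling, rose by 0.94 ± 0.22 in MAD (adjusted p = 0.0021) and by 1.21 ± 0.25 in RAD (adjusted p = 0.00019). CMKLR2, another chemerin receptor, was lower in ULB than in GOM in WG by -1.50 ± 0.17 (adjusted p = 5.8e-12).

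Adiponectin is folded and released with the help of ERP44, ERO1A and GSTK1, proteins of the secretory path. None of the 3 was called between NC and WG in any AT. Between NC and WL 2 of 3 fell in GOM, 2 in MAD and 3 in RAD, where 20.7%, 17.8% and 16.6% of all PCGs fell, among them ERO1A by -0.81 ± 0.13 in GOM (adjusted p = 1.9e-05), -0.67 ± 0.15 in MAD (adjusted p = 0.0015) and -0.61 ± 0.12 in RAD (adjusted p = 0.00050). For the 3 genes the medians were -0.81 (GOM), -0.66 (MAD) and -0.61 (RAD).

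The alternative complement pathway around CFD was tested through C3, CFB, CFI, CFP and C5. Of these 5 genes, 2 fell with weight gain in each VAT and none in ULB, where 14.5% (GOM), 5.29% (MAD), 9.6% (RAD) and 1.87% (ULB) of all PCGs fell, with median log2 differences of -0.76, -0.34, -0.76 and 0.28. C3, its central protein, fell by -1.19 ± 0.31 in GOM (adjusted p = 0.0023), and CFB, the substrate of factor D, fell by -1.91 ± 0.47 in RAD (adjusted p = 0.0014). From WG to WL 2 of the 5 rose in GOM, C5 by 1.02 ± 0.29 (adjusted p = 0.017) and CFI, an inhibitor of the pathway, by 1.08 ± 0.36 (adjusted p = 0.048), 1 rose in MAD, CFB by 1.05 ± 0.32 (adjusted p = 0.012), and 1 fell in ULB, C5 by -1.01 ± 0.22 (adjusted p = 0.00079). The share of all PCGs that rose was 2.55% in GOM and 8.26% in MAD, and 4.9% fell in ULB. The medians of the 5 were 0.78 (GOM), 0.48 (MAD), 0.39 (RAD) and -0.24 (ULB). Between GOM and ULB in WG, CFI was lower in ULB by -3.70 ± 0.25 (adjusted p = 4.1e-23) and CFB by -2.79 ± 0.24 (adjusted p = 1.4e-17). C3 was lower as well, at -2.57 ± 0.23, while C5, named here as the exception, was higher in ULB by 1.70 ± 0.14 (adjusted p = 1.0e-18). The summed TPM of the mesothelial markers KRT18 and WT1, the 2 of 6 in the table, had medians of 45.3 in WG GOM and 5.32 in WG ULB, and its part in those values was not tested.

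Of 6 genes of NAD synthesis tested around NAMPT, 1 rose in GOM and 1 fell in RAD between NC and WG, against 12.2% higher and 9.6% lower of all PCGs, with 0 calls in MAD and ULB. The gene that fell was NMRK1, a kinase of nicotinamide riboside, which fell by -0.90 ± 0.17 in RAD (adjusted p = 4.5e-05). Between NC and WL, where 9.37% to 20.7% of all PCGs fell, NMRK1 fell in all 4 ATs, by -0.88 ± 0.22 to -1.43 ± 0.23. The median of the 6 lay between -0.39 and -0.19 in that comparison.

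Among other secreted products of adipose tissue, 6 rose and 1 fell of 11 tested in GOM with weight gain, 3 rose and 1 fell of 11 in MAD, 4 rose and 1 fell of 12 in RAD and 1 fell of 12 in ULB. Of all PCGs 12.2%, 5.38% and 7.1% rose in the 3 VATs, and 1.87% fell in ULB. Their median log2 differences were 0.61 in GOM and 0.09 in RAD. METRNL, a secreted protein related to meteorin, rose by 1.48 ± 0.44 in GOM (adjusted p = 0.0068), 1.16 ± 0.28 in MAD (adjusted p = 0.0027) and 1.27 ± 0.24 in RAD (adjusted p = 5.9e-05). AGT, angiotensinogen, fell in ULB by -1.14 ± 0.28 (adjusted p = 0.013). Between WG and WL AGT fell by -2.36 ± 0.25 in MAD and -1.95 ± 0.26 in GOM (adjusted p = 8e-07). LCN2, lipocalin 2, an iron-binding protein of inflammation, fell in MAD by -1.89 ± 0.47 (adjusted p = 0.0020), in RAD by -1.88 ± 0.39 (adjusted p = 0.00079) and in ULB by -1.80 ± 0.44 (adjusted p = 0.0029). Neutrophils also make it. The summed TPM of 4 neutrophil markers, of 5 in the list, fell between the same groups as well, from medians of 93.3 to 40.8 (MAD), 89.7 to 34.8 (RAD) and 165.3 to 40.7 (ULB). Its part in the LCN2 differences was not tested.

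The chromatin compartment of each gene was read from the A-B index of the 20-kb bin that holds its transcription start. The index is above 0 in the open A compartment and below 0 in the closed B compartment. APLN is on the X chromosome, which the index does not cover. LEP, ADIPOQ, CFD, NAMPT, RARRES2 and RETN were above 0 in all 240 samples, and RBP4 was below 0 in all 240. CFD had the highest index, with group means from 5.73 to 6.48, at the 98.9th to 99.7th percentile of the 113298 bins. RARRES2 had 3.14 to 3.84, NAMPT 2.15 to 2.73, RETN 2.15 to 3.20, LEP 1.74 to 3.21, ADIPOQ 1.39 to 2.45 and RBP4 -2.32 to -1.45. In every AT RBP4 RNA was thus present while the bin at its start lay in the B compartment. The index comes from the adipocyte-holding layer of the tissue, so it and the RNA-seq may not cover the same cells.

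**Figure D4:**
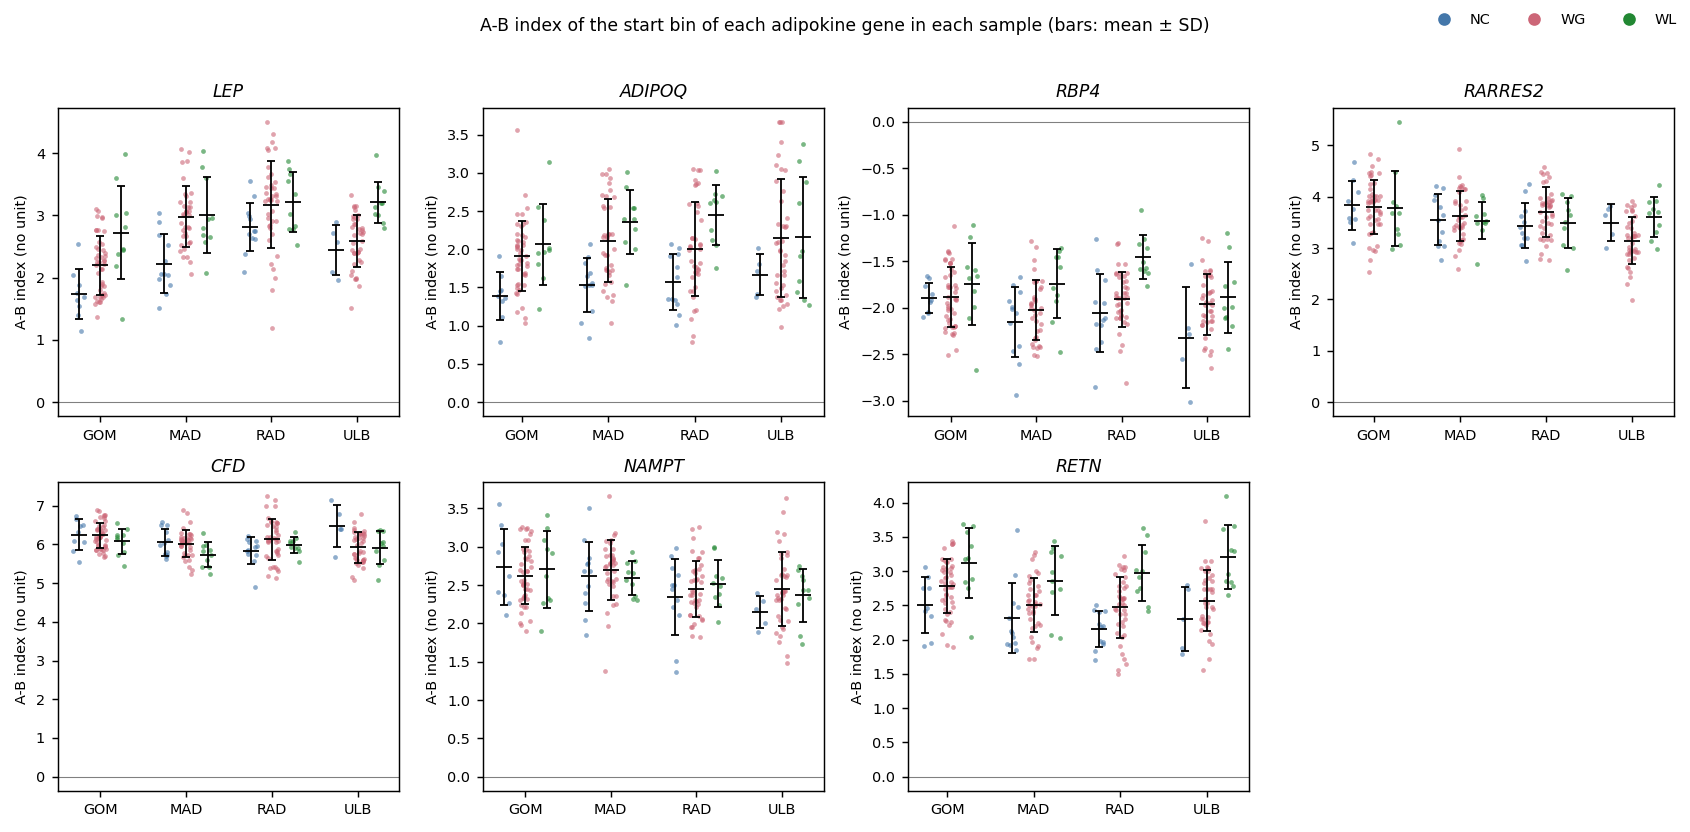
A-B index of the 20-kb bin at the start of each gene, 1 point per Hi-C sample, by adipose tissue and diet, with black bars for the mean ± SD. The horizontal line is 0. RBP4 is below 0 in every sample, the other 6 genes are above it, and the index of LEP is lowest in NC GOM.

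With weight gain 1 of 28 tests of the index was called, against 2.79% to 6.15% of bins over the 4 ATs, with an adjusted p under 0.05 in limma and an index difference above 0.75. It was LEP in MAD, where 4.47% of bins were called. The NC mean was 2.23 ± 0.47 (SD, n = 12) and the WG mean 2.98 ± 0.49 (SD, n = 37), a difference of 0.75 ± 0.16 (SE, adjusted p = 0.00057). Between WG and WL none was called by limma, against 1.01% to 9.96% of bins, and with a limit of 0.5 there were 4. Between NC and WL 7 were called, against 10.1% (GOM), 11.2% (MAD), 15.8% (RAD) and 13.6% (ULB) of bins. They were LEP in GOM (0.99 ± 0.26, adjusted p = 0.015), in MAD (0.78 ± 0.22, adjusted p = 0.012) and in ULB (0.76 ± 0.22, adjusted p = 0.025), ADIPOQ in MAD (0.83 ± 0.17, adjusted p = 0.00096) and RAD (0.88 ± 0.17, adjusted p = 0.00021), and RETN in RAD (0.82 ± 0.15, adjusted p = 0.00018) and ULB (0.90 ± 0.26, adjusted p = 0.024). In ULB the LEP call was lost without NC replicate 7 (0.67, adjusted p = 0.066) or 12 (0.64, adjusted p = 0.083), and the RETN call without NC replicate 5 (adjusted p = 0.073) or 9 (adjusted p = 0.080). The LEP calls were also read, after seeing the data, from the bin at the 5′ end of its gene model. There the difference was 0.67 ± 0.18 in MAD with weight gain (adjusted p = 0.0045) and 0.63 ± 0.23 in GOM between NC and WL (adjusted p = 0.067), and neither was called, while MAD (0.86 ± 0.20, adjusted p = 0.0032) and ULB (1.17 ± 0.23, adjusted p = 0.0033) between NC and WL were.

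The index of most gene starts rose as well, and the part of this in the called shifts was not tested. The median difference over all start bins was 0.19 to 0.28 between NC and WG and 0.25 to 0.41 between NC and WL. After quantile normalization between samples none of these 8 diet calls remained, LEP in MAD with weight gain being 0.49 (adjusted p = 0.019), and CFD in MAD between NC and WL was called at -0.79 (adjusted p = 0.0038). Between ATs LEP was called 3 times, against 1.07% to 20.5% of bins. It was higher in RAD than in GOM by 1.08 ± 0.18 in NC (adjusted p = 7.5e-05) and by 0.97 ± 0.13 in WG (adjusted p = 1.8e-10), and higher in MAD than in GOM by 0.78 ± 0.11 in WG (adjusted p = 1.8e-09). The 2 differences between GOM and RAD remained after quantile normalization, at 0.97 and 0.84. For LEP the index and the expression thus differed in the same direction between GOM and RAD in NC and in WG. Other pairs did not follow this. In WG the mean LEP index was 2.58 in ULB and 2.98 in MAD, and in NC 2.45 in ULB and 2.82 in RAD. LEP expression was higher in ULB in both pairs, and neither index difference was called. GOM and ULB in WG and GOM and RAD in WL had called expression differences but no index call. For GOM and MAD in WG the LEP index was called higher in MAD, while the LEP medians were 374.9 TPM in GOM and 322.0 in MAD. ADIPOQ went in opposite directions from NC to WL in MAD and RAD. There its index was called higher, before quantile normalization, and its expression was called lower.

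H3K27ac marks active enhancers and promoters. The 18 region tables each pool the libraries of a group or of a WG subgroup, so they have no replicates and no test, the NC MAD table comes from 1 library, and they hold the autosomes, so that APLN is not covered. Stitched regions overlapped ADIPOQ, NAMPT and RARRES2, with 10-kb flanks, in all 18 tables. CFD had a region in 15 tables, LEP in 14, RETN in 7 and RBP4 in 2. The share of 13052 autosomal PCGs with a region within 10 kb was 72.3% to 92.9% over the tables, and RETN and RBP4 were without one in most tables.

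**Figure D5:**
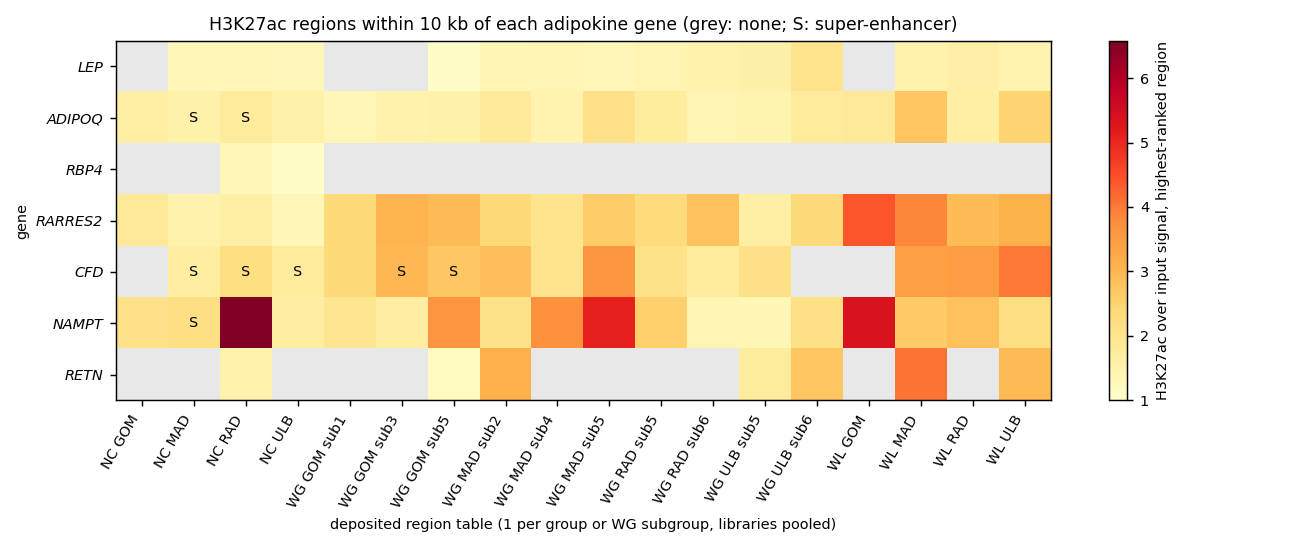
H3K27ac signal over input of the highest-ranked region within 10 kb of each gene (colour, from 1) in the 18 region tables, with grey where there is none and S where any region is a super-enhancer. ADIPOQ, NAMPT and RARRES2 have a region in every table, RBP4 only in NC RAD and NC ULB, and CFD has a super-enhancer in 5 tables.

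LEP had no region in NC GOM, in 2 of the 3 WG GOM subgroups or in WL GOM, and it had at least 1 in every table of MAD, RAD and ULB. None of its regions was a super-enhancer, and the highest signal over input of a LEP region was 2.06. Only in NC RAD, NC ULB and WL ULB did a region span the LEP start of the curated transcript. RBP4 had its regions in NC RAD, at 1.32 times the input, and in NC ULB, at 1.12 times. CFD lay in super-enhancers of NC MAD, NC RAD and NC ULB and in or within 10 kb of 1 in 2 WG GOM subgroups, and the NC RAD region was 674.6 kb long. No region was listed near CFD in NC GOM, WL GOM or 1 WG ULB subgroup. ADIPOQ lay in super-enhancers of NC MAD (140.6 kb) and NC RAD (227.0 kb), and NAMPT in 1 of NC MAD (122.4 kb). The NC MAD super-enhancers of CFD, ADIPOQ and NAMPT thus rest on a single library. A super-enhancer was near 6.57% to 31.2% of PCGs over the tables. For NAMPT the signal over input was highest at a 5.80-kb region over the start in NC RAD, at 6.58 times the input, while the RARRES2 regions reached 4.41 times in WL GOM, the group with its highest median expression. No RETN region reached the gene itself.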

How the data were processed

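The members and gene lists were chosen with earlier results of these data known. RNA-seq libraries were depleted of rRNA and stranded. The authors quantified PCGs of Sscrofa11.1 with kallisto 0.43.0 and deposited TPM and estimated counts (summed to genes with tximport). The authors computed the A-B index, deposited as a score per 20-kb bin, from Juicer maps normalized with BNBC. The authors aligned ChIP-seq with BWA 0.7.15 and SAMtools 1.3.1, called peaks with SICER on pooled libraries, and deposited ROSE signal per stitched region (stitching 12500 bases, excluding 2000 bases around starts). Versions are from the submitters' processing notes.

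Estimated counts were rounded, PCGs above 0.5 TPM in at least 80% of a group's samples were kept (13346 to 14440 per comparison) and groups compared with edgeR 4.0.16 in R 4.3.3 (TMM, glmQLFit and glmQLFTest, 2-sided, Benjamini-Hochberg over all PCGs tested). The 12 diet and 18 AT comparisons each used the 2 groups' libraries. The index was tested with limma 3.58.1 over 113298 bins. Scripts were tested on simulated data. Alternatives were DESeq2 1.42.0, RLE size factors, no filter, the share of TPM on PCGs as a covariate or with a minimum of 88%, single libraries left out, the replicate number as a block, quantile normalization of the index, the mean over a gene's bins and an index limit of 0.5. Differences of a diet effect between ATs were also fitted with limma voom, with and without the replicate number within a diet as a block. Symbols were given for 14821 of 21280 PCGs, and 13521 were placed on the RefSeq annotation. A number of 9 columns per expression or index file, 2 named NC GOM and 7 NC ULB, matched no sample and were not used. The columns are numbered within groups. The study took all 4 ATs from each carcass, but the sources used here do not say that a number marks 1 pig across ATs. The main AT comparisons were therefore unpaired, and their p-values take libraries that may come from 1 pig as independent. In the diet comparisons within an AT, p-values measure the spread between these samples. Same-numbered samples deviated together (every correlation above 0.1) in 4 of 18 AT comparisons of expression and 0 of 18 of the index. In the 6 comparisons within WG, 30 to 37 pairs were above 0.1 (all pairs in 2 comparisons, all but 1 or 2 in the others), with median r of 0.556 to 0.637, against -0.0956 to -0.0284 for other numbers. The text names the 8 genes, from each list the 2 called genes with the largest change in a comparison, the marker sums, and the 3 genes most like each member, except that some genes this rule names are not reported here.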

Additional observations from a re-analysis of the deposited data

Results flagged for a closer look

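Over 89 sets of 5 to 10 samples of a group, 6 values lay far from the rest of their group, where chance alone gives about 1 in 20 sets. APLN in NC ULB replicate 7 had 5.899 TPM, against 2.028 in the next. RBP4 in NC ULB replicate 12 had 95.78 TPM, against 38.57. NAMPT in WL GOM replicate 3 had 262.4 TPM, against 156.1. RETN in WL MAD replicate 7 had 21.08 TPM, against 3.258, and in NC GOM replicate 10 it had 0.1814 TPM, where the others were listed at 0. The A-B index of RARRES2 in WL MAD replicate 6 was 2.686, against 3.348 in the next lowest.

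The change with diet differed between ATs in 8 of the tests of that difference (an interaction in 1 edgeR fit over all libraries, added after seeing the data, with 18 contrasts per gene and adjustment over all PCGs). With weight gain the log2 change of ADIPOQ was higher in GOM than in MAD by 0.887 (adjusted p = 0.047, where 10% of PCGs passed) and than in RAD by 1.03 (adjusted p = 0.038, 3.57% of PCGs). The change of APLN was higher in GOM than in MAD by 1.05 (adjusted p = 0.049), that of LEP higher in GOM than in ULB by 1.25 (adjusted p = 0.048) and that of CFD higher in GOM than in ULB by 1.19 (adjusted p = 0.017), where 3.88% of PCGs passed. From WG to WL the change of ADIPOQ in MAD minus that in ULB was -0.938 (adjusted p = 0.044, 6.96% of PCGs). From NC to WL the change of ADIPOQ was higher in GOM than in MAD by 1.38 (adjusted p = 0.012, 7.86% of PCGs), and that of CFD higher in MAD than in ULB by 1.13 (adjusted p = 0.048, 4.35% of PCGs). This fit took same-numbered libraries of different ATs as independent. Of the 8, a limma voom fit, also added after seeing the data, called 2 without a block (CFD between GOM and ULB with weight gain, adjusted p = 0.019, and ADIPOQ between GOM and MAD from NC to WL, adjusted p = 0.016), and 7 with the replicate number within a diet as a block. The exception with the block was APLN (0.934, adjusted p = 0.071). Over the 126 tests of the 7 genes that passed the filter, the block gave 19 differences with an adjusted p under 0.05. The counts of the limma voom fits are not set beside the share of all PCGs that passed. The higher count with the block can thus not be read as a result about these genes.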

How the results depend on the processing

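No called difference changed direction. Of the 82 expression calls, DESeq2 ended 0, RLE size factors 1, no filter on low genes 4, the covariate 10 and the restriction to libraries with at least 88% of TPM on PCGs 35. That restriction left only 2 NC GOM, 3 NC ULB, 4 WL GOM, 4 WL MAD and 6 NC RAD libraries. The covariate ended NAMPT in GOM, RBP4 in MAD and ADIPOQ in ULB from WG to WL, ADIPOQ in MAD from NC to WL, APLN between GOM and MAD (adjusted p = 0.084) and CFD between GOM and ULB (adjusted p = 0.059) in NC, RARRES2 between GOM and RAD in WG (-0.53), and in WL APLN between GOM and RAD (adjusted p = 0.056), LEP between MAD and RAD (adjusted p = 0.059) and RBP4 between MAD and ULB (adjusted p = 0.059). The restriction ended 9 calls of RARRES2, 8 of APLN, 6 of RBP4, 4 each of ADIPOQ and LEP, 3 of CFD and 1 of NAMPT. WG vs WL had 4 calls, and 1 with the covariate and 1 with that restriction. Between ATs the 50 calls became 28 with that restriction. Index calls between NC and WG went from 1 to 0 after quantile normalization, 0 with the mean of the gene's bins and 3 with the limit of 0.5. Index calls between WG and WL went from 0 to 4 and between ATs from 3 to 9 with that limit, and between NC and WL from 7 to 1 after quantile normalization. The cause was not tested. The 92 pairs of gene and table with an H3K27ac region became 8 with super-enhancers alone. The lists gave 260 calls in 1058 tests of a gene in a comparison. Over all PCGs the share called was 14.3% for NC vs WG, 9.32% for WG vs WL, 27.8% for NC vs WL and 11.3% between ATs. With single libraries left out, expression calls ran from 10 to 12 (NC vs WG), 3 to 5 (WG vs WL), 17 to 19 (NC vs WL) and 47 to 51 (between ATs), and index calls from 1 to 1, 6 to 7 and 3 to 4 for NC vs WG, NC vs WL and between ATs. With the replicate block the calls between ATs were 53 for expression and 3 for the index, and it ended 6 of the 50 expression calls. Besides those given for GOM and ULB in NC, it ended RBP4 between RAD and ULB in NC (adjusted p = 0.063), where the numbers did not pair the samples. APLN and RETN are limited by their low TPM.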

Other observations

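The genes whose log2(TPM + 1) followed each adipokine most closely over the 236 libraries were sought among 15067 PCGs, as a description with no test, since libraries share groups, depth and tissue makeup. Only genes with a symbol are named, and 1 PCG without a symbol stood above the named genes for NAMPT and APLN, above NUAK1 for LEP and above NTN1 for RBP4. LEP was followed by PLEKHA2 (r = 0.791, rho = 0.689), NUAK1 (r = 0.766) and USP5 (r = 0.754), and ADIPOQ by UNC93A (r = 0.731), PPP1R1B (r = 0.703) and PRKAR2B (r = 0.658). RARRES2 was followed by DKK3 (r = 0.820) and MEGF6 (r = 0.812). CFD had NOP53 (r = 0.834), NOSIP (r = 0.828) and DALRD3 (r = 0.825). RBP4 had BTC (r = 0.645), NTN1 (r = 0.622) and SORL1 (r = 0.618), NAMPT had PHAX (r = 0.655), EIF3M (r = 0.654) and EIF4A2 (r = 0.650), and APLN had EN1 (r = 0.70), CAMK2G (r = 0.699) and CRABP2 (r = 0.697). RETN had CNR2 (r = 0.693, rho = 0.363), SPIB (r = 0.683, rho = 0.287) and CCR9 (r = 0.668, rho = 0.168), genes known from lymphocytes. The highest RETN values were in MAD libraries, and r without those libraries was not computed. Among the 8 members LEP and APLN had r = 0.485, and 0.0776 on deviations from the group means.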
